A study of Rattus norvegicus with 23 samples.

Results

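The circadian clock genes of the rat were followed in the CA3 field of the hippocampus of 3 groups of animals. The members were Bhlhe40, Bhlhe41, Tef, Dbp, Per1, Per2, Per3, Clock, Nr1d1 and Nr1d2, and every probe set of the array that the platform's annotation gives to 1 of these symbols was taken. That rule found 19 probe sets among 31042, covering all 10 genes of 14218 that the array names. The search for probe sets used no measured value, but the member genes were chosen with earlier results of these data known. Their counts beside all probe sets are therefore descriptive. Of the 19 probe sets, 12 had log2 values of 4 or more on 6 or more of the arrays and were tested, among 14647 tested in all, and these 12 stood for 9 genes. The other 7 lay near the floor of the scale. They were the only probe set of Nr1d1, whose highest log2 value on any array was 2.54, and further probe sets of Tef (1385374_at), Per2 (1378560_at), Per3 (1388239_at), Clock (1369168_a_at and 1380098_at) and Nr1d2 (1370540_at).

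The animals were male Long-Evans rats, an outbred strain, kept 1 to a cage on a light and dark cycle and given no treatment. The young group held 9 animals of 6 months. The aged animals were 24 to 26 months old and were divided by a learning index from the Morris water maze, a swimming task that tests memory for a place. The 6 aged unimpaired animals scored within the range of the young, and the 8 aged impaired animals scored worse. CA3 was dissected from each animal after the behavioural testing and its RNA was hybridised to an Affymetrix Rat Genome 230 2.0 array, 1 array per animal. The hour at which each animal was killed was not used here, so a level is 1 reading per animal at an hour that is unknown here.

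The mammalian clock is a transcriptional loop that runs in nearly every cell with a period of about a day. The activators CLOCK, or its relative NPAS2, and BMAL1 pair on E-box elements and drive the genes of their own repressors, the PER and CRY proteins, together with BHLHE40 and BHLHE41, DBP, TEF and the nuclear receptors NR1D1 and NR1D2 (REV-ERB alpha and beta). NR1D1 and NR1D2 in turn repress the gene for BMAL1, and DBP, TEF and HLF activate genes through D-box elements, which NFIL3 represses. In the hippocampus the loop cycles in neurons and glia, and mice lacking parts of it have impaired hippocampal memory.

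Bhlhe40, Bhlhe41 and Tef carry differences between groups that are described next, and their RefSeq promoter windows are shown first, because each holds an E-box. Each window runs from 250 bases before to 50 bases after a transcript start of rat assembly GRCr8, is written 5′ to 3′ on the strand of the gene, and has the E-box CACGTG in capitals. The Bhlhe40 window is chr4:143174200-143174499 (plus strand), the Bhlhe41 window chr4:180569306-180569605 (minus strand) and the Tef window chr7:115206577-115206876 (plus strand).
Bhlhe40: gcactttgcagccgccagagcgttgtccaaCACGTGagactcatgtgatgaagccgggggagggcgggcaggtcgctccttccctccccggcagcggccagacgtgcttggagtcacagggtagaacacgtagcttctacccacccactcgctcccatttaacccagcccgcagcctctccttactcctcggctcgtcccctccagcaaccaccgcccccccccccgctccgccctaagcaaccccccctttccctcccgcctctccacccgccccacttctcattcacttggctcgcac
Bhlhe41: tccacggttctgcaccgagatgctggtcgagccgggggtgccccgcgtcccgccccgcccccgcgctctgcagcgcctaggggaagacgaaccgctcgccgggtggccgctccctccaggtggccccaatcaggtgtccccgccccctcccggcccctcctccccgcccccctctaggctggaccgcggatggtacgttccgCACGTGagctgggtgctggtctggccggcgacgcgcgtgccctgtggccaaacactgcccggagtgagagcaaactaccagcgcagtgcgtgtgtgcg
Tef: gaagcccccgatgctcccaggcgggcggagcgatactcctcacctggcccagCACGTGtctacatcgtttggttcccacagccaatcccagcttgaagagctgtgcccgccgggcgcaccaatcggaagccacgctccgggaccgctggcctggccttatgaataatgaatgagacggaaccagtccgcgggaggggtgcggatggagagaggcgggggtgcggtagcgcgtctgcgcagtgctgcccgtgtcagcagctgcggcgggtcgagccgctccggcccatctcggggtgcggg
The E-box began 220 bases before the start in Bhlhe40, 48 bases before it in Bhlhe41 and 198 bases before it in Tef. The search for CACGTG, which reads the same on both strands, covered all promoter windows of the table, and 6.42% of 33469 windows held it. Among the 12 windows of the members, 4 held it, the 3 above and 1 of Nr1d1. The windows of Dbp, Per1, Per3 and Clock held none of the 4 motifs searched. A match describes the letters in these windows only.

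Shorter stretches come from the other members with a match.
Per2: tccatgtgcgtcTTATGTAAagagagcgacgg
Nr1d1: tgtcagctcccaCACGTGtctggggatcct
Nr1d2: gattggaaggagAGGTCAggaacgcgcata
The capitals mark a D-box in Per2 (chr9:99496944-99497243, minus strand), beginning 192 bases before the start. They mark the E-box in 1 of the 2 windows of Nr1d1 (chr10:84229405-84229704, minus strand), 191 bases before it. In Nr1d2 (chr15:9954784-9955083, plus strand) they mark AGGTCA, the core element bound by ROR and REV-ERB receptors, 187 bases before it. The D-box, searched as TTATGTAA or TTACGTAA on both strands, was held by 1.01% of all windows, AGGTCA on both strands by 16.2%, and the cAMP response element TGACGTCA by 1.83%, with 0 member windows.

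Of the 12 tested probe sets, 4 differed between aged impaired and young animals at an adjusted p of at most 0.05 (limma, Benjamini-Hochberg over 14647 probe sets). Bhlhe40 and Bhlhe41, a pair of closely related transcriptional repressors, rose, Dbp rose, and Tef fell in its brighter probe set. Of all tested probe sets 9.76% were called in that comparison, 3.88% higher and 5.88% lower. Bhlhe41 alone rose in aged unimpaired against young animals, where 2.06% of all probe sets were called and 1.37% were called higher. Between the aged groups 0 of 12 member probe sets were called by limma, 1 had an unadjusted p under 0.05 where 15.2% of all probe sets did, and 0.778% of all probe sets were called. The comparisons with young share the young animals, so their results are not independent of each other. Combining the aged groups, as the mean of their 2 means, against young, Bhlhe40, Bhlhe41 and Tef were called, 3 of 12, beside 6.9% of all tested probe sets.

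The median log2 difference of the 12 member probe sets was 0.20 between aged impaired and young, against −0.02 over all tested probe sets. Its size regardless of sign had a median of 0.23 among the members and 0.08 over all. For aged unimpaired against young the member median was 0.09, and for aged impaired against aged unimpaired 0.10. An unadjusted p under 0.05 was reached by 8 of 12 member probe sets for aged impaired against young, where 26.3% of all probe sets reached it. These included both Nr1d2 probe sets and the dimmer of the tested Clock probe sets. For aged unimpaired against young 3 of 12 reached it, where 16.8% of all did.

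**Figure D1:**
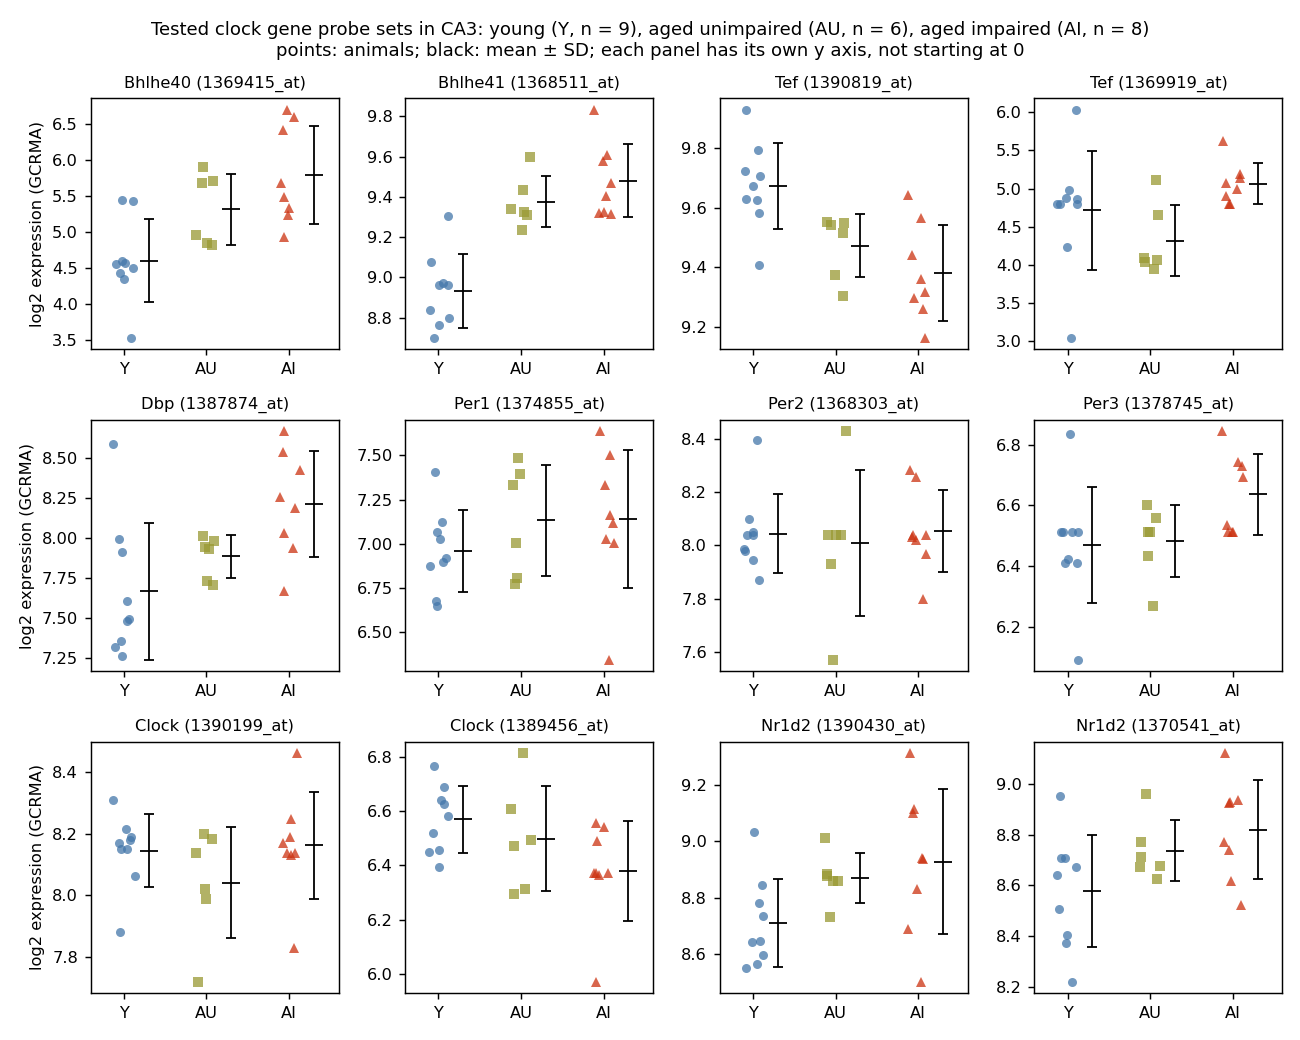
Log2 expression of the 12 tested clock gene probe sets in each animal (young Y, n = 9; aged unimpaired AU, n = 6; aged impaired AI, n = 8), 1 panel per probe set with its own y axis; points are animals and black marks the mean ± SD. All 8 aged impaired animals lie above all 9 young animals for Bhlhe41, while the groups overlap for Dbp and lie at nearly the same level for Per2.

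Bhlhe41 (1368511_at) is a helix-loop-helix repressor that competes with CLOCK and BMAL1 at E-boxes and that also acts in immune cells and in the control of sleep length. Its log2 level had a lowest, median and highest value of 8.70, 8.96 and 9.30 in the young, 9.24, 9.33 and 9.60 in the aged unimpaired, and 9.32, 9.44 and 9.83 in the aged impaired animals. Every aged impaired animal was above every young animal, and 5 of 6 aged unimpaired animals were too, whereas the aged groups overlapped. Groups that do not overlap, the first being higher, were seen for 0.594% of all probe sets for aged impaired against young. The mean rose from 8.93 ± 0.18 (SD, n = 9) in the young to 9.48 ± 0.18 (SD, n = 8) in the aged impaired, a log2 difference of 0.55 ± 0.08 (SE), or 1.46-fold, with a limma adjusted p of 0.000332. In the aged unimpaired it rose to 9.37 ± 0.13 (SD, n = 6), by 0.44 ± 0.09 (SE) or 1.36-fold, with a limma adjusted p of 0.00873. The aged groups differed by 0.11 ± 0.09 (SE; limma adjusted p = 0.631; 95% interval −0.08 to 0.29), within the spread between animals. Of the 14 aged animals 13 were above every young animal, and the call held in every alternative that was run.

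The marker genes of microglia and astrocytes moved in the same comparisons. In bulk tissue, more cells of a type and more RNA per cell cannot be told apart, nor can fewer cells and less RNA per cell. Of 8 tested microglia markers 6 rose in the aged impaired and 6 in the aged unimpaired animals against young, where 3.8% and 1.43% of all genes were called higher, and 0 were called between the aged groups. Their mean log2 level ranged from 6.87 to 7.36 in the young, 7.55 to 7.93 in the aged unimpaired and 7.48 to 8.16 in the aged impaired, so that every aged animal was above every young one. The microglia markers Cx3cr1, Itgam, Cd68 and Ptprc lay near the floor and were not tested. Of 11 tested astrocyte markers 4 rose in the aged impaired and 2 in the aged unimpaired animals, with mean levels of 10.56 to 10.85 in the young, 10.81 to 11.04 in the aged unimpaired and 10.77 to 11.09 in the aged impaired. Within groups, the named genes whose levels followed Bhlhe41 most closely over the 23 animals were B2m (r = 0.84), the light chain of class I histocompatibility molecules, S100b (r = 0.81), a calcium-binding protein of astrocytes, and Lyz2 (r = 0.80), the lysozyme of macrophages and microglia. The part of these cell types in the Bhlhe41 result was not tested.

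Bhlhe40 (1369415_at), the paralogue, is induced by many stimuli and represses through E-boxes as well. It lay toward the low end of the scale, with a lowest, median and highest log2 level of 3.53, 4.55 and 5.44 in the young, 4.82, 5.32 and 5.90 in the aged unimpaired, and 4.93, 5.59 and 6.70 in the aged impaired animals. As many as 5 of 8 aged impaired and 3 of 6 aged unimpaired animals were above every young animal, and the other aged animals overlapped with the young. The mean rose by 1.20 ± 0.27 (SE) on the log2 scale, or 2.29-fold, from 4.60 ± 0.58 (SD, n = 9) in the young to 5.80 ± 0.68 (SD, n = 8) in the aged impaired, with a limma adjusted p of 0.00949. With the replicate number as a block the difference was 1.17 (limma adjusted p = 0.0533), and the call for the combined aged groups was lost with the block (0.081) and with no filter (0.0591). The aged unimpaired mean was 5.32 ± 0.49 (SD, n = 6), and its difference from young of 0.72 ± 0.30 (SE) did not pass (limma adjusted p = 0.217). The order of the means was therefore young, aged unimpaired and aged impaired, in which only the outer 2 were separated by the test. Between the aged groups the difference was 0.48 ± 0.31 (SE; 95% interval −0.15 to 1.11; limma adjusted p = 0.49). Within groups, Bhlhe40 and Bhlhe41 had r = 0.33 over 23 animals (permutation p = 0.15, adjusted over 36 pairs 0.463).

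Dbp and Tef encode proline and acidic rich leucine zipper activators that bind D-boxes and pass the rhythm of the loop on to output genes. The Dbp probe set (1387874_at) had a lowest, median and highest log2 level of 7.26, 7.49 and 8.59 in the young, 7.71, 7.94 and 8.01 in the aged unimpaired, and 7.67, 8.22 and 8.67 in the aged impaired animals. The groups overlapped widely, since 1 young animal (young 1, at 8.59) was above all but 1 of the aged impaired animals. The mean rose from 7.67 ± 0.43 (SD, n = 9) to 8.21 ± 0.33 (SD, n = 8) in the aged impaired, by 0.55 ± 0.16 (SE) or 1.46-fold, with a limma adjusted p of 0.0314. The size of the difference moved little when single animals were left out, but the adjusted p crossed the threshold. The call was lost without aged impaired 2 or 3, or without young 4, 6, 7, 8 or 9, each left out alone (log2 difference between 0.48 and 0.52, limma adjusted p between 0.0528 and 0.0637), and without aged impaired 1 and 2 together (log2 difference 0.46, limma adjusted p = 0.0916). With the aged groups combined the difference from young was 0.38 ± 0.14 (SE; limma adjusted p = 0.0967), and without young 1 it was 0.50 (limma adjusted p = 0.0122). In the aged unimpaired, at 7.88 ± 0.13 (SD, n = 6), the difference from young was 0.22 ± 0.17 (SE; limma adjusted p = 0.55), and 6 of 8 aged impaired animals were above every aged unimpaired animal, with a difference of 0.33 ± 0.18 (SE; limma adjusted p = 0.391).

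Tef was read by a bright probe set and a dim one. The bright probe set (1390819_at) had a lowest, median and highest log2 level of 9.41, 9.67 and 9.93 in the young, 9.31, 9.53 and 9.55 in the aged unimpaired, and 9.16, 9.34 and 9.64 in the aged impaired animals. Below every young animal were 5 of 8 aged impaired and 2 of 6 aged unimpaired animals. The mean fell by 0.29 ± 0.07 (SE) on the log2 scale, 1.23-fold lower, from 9.68 ± 0.14 (SD, n = 9) to 9.38 ± 0.16 (SD, n = 8), with a limma adjusted p of 0.0097. The aged unimpaired mean of 9.47 ± 0.11 (SD, n = 6) differed from young by −0.20 ± 0.07 (SE; limma adjusted p = 0.155) and from the aged impaired mean by less than the spread between animals (−0.09 ± 0.08 SE; limma adjusted p = 0.617).

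The dim Tef probe set (1369919_at) did not follow the bright one. Its lowest, median and highest log2 levels were 3.05, 4.80 and 6.04 in the young, 3.95, 4.08 and 5.11 in the aged unimpaired, and 4.80, 5.04 and 5.62 in the aged impaired animals. The groups overlapped, and its log2 differences of 0.35 ± 0.26 (SE) for aged impaired and −0.40 ± 0.28 (SE) for aged unimpaired against young did not pass, with limma adjusted p of 0.416 and 0.503. After group means were subtracted, the 2 probe sets had r = 0.14 over 23 animals. Their log2 differences between aged impaired and aged unimpaired animals were unequal by −0.84 (exact permutation p = 0.00466, adjusted over 9 tests 0.042, two-sided), and those between aged impaired and young animals by −0.64 (exact permutation p = 0.026, adjusted 0.117). On the dim probe set 5 of 23 arrays held 4.80 within 0.001, and its difference between aged impaired and aged unimpaired, 0.75 on the log2 scale, was 0.04 with the gap between control rows as covariate. The inequality was tested on the deposited values only. Which transcripts each probe set reads was not tested.

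**Figure D2:**
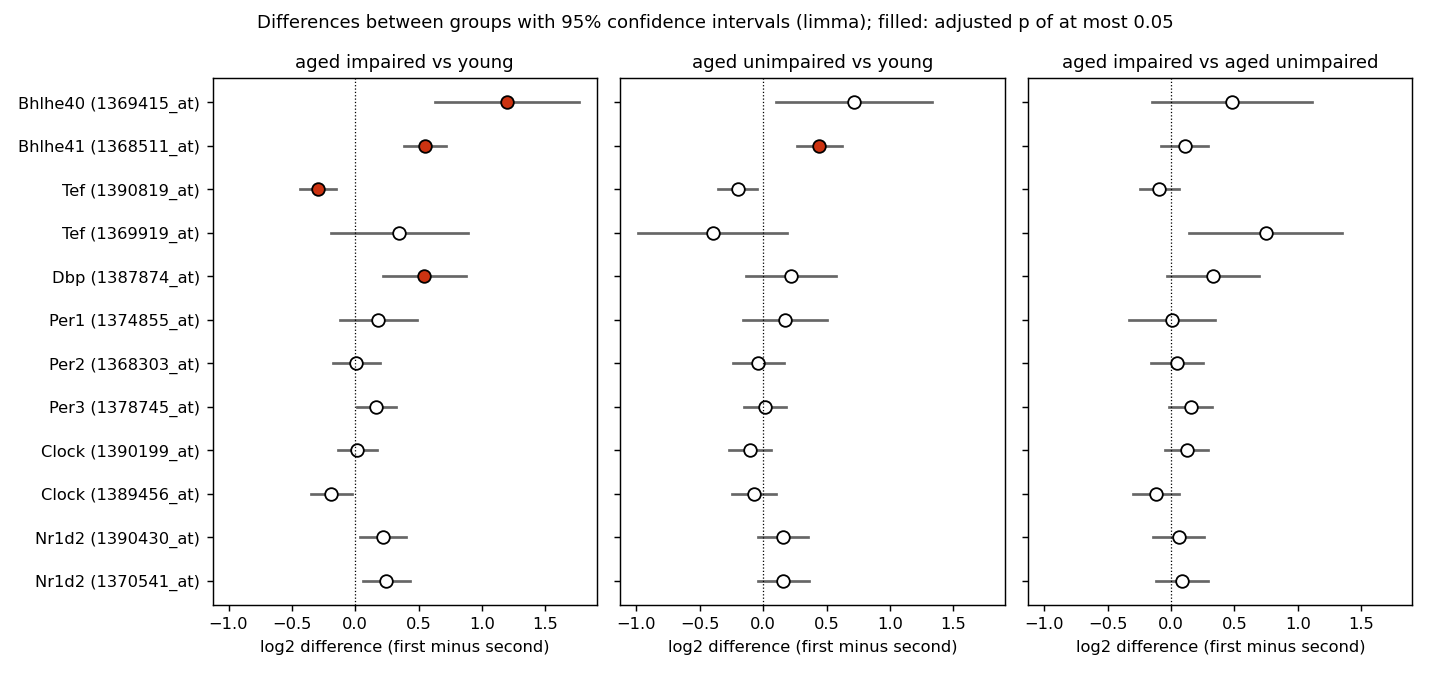
Log2 differences of the 12 tested probe sets in 3 panels (aged impaired minus young, aged unimpaired minus young, aged impaired minus aged unimpaired); points are limma estimates, lines are 95% confidence intervals, and filled points have an adjusted p of at most 0.05. Filled points appear for Bhlhe40, Bhlhe41, Tef (1390819_at) and Dbp in the first panel and for Bhlhe41 in the second.

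The Period genes Per1, Per2 and Per3 encode the repressors whose build-up and decay time the loop, and Per1 and Per2 are also induced acutely by light, activity and glucocorticoids. None of the 3 was called in any comparison. Per2 (1368303_at) lay at 8.04 ± 0.15 (SD, n = 9) in the young, 8.01 ± 0.27 (SD, n = 6) in the aged unimpaired and 8.05 ± 0.15 (SD, n = 8) in the aged impaired, and the 95% interval of the difference between aged impaired and young ran from −0.17 to 0.19 on the log2 scale. A median of 8.04 was found in each of the 3 groups, and 7 of 23 arrays held that value within 0.001. For Per1 (1374855_at) the levels were 6.96 ± 0.23 (SD, n = 9), 7.13 ± 0.31 (SD, n = 6) and 7.14 ± 0.39 (SD, n = 8), in the same order of groups, and the aged impaired minus young difference was 0.18 ± 0.15 (SE; limma adjusted p = 0.452). The aged impaired animals ranged from 6.34 to 7.64, past the young at both ends.

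Per3 (1378745_at), the Period gene whose loss leaves the rhythm nearly intact, had a lowest, median and highest log2 level of 6.09, 6.51 and 6.84 in the young, 6.27, 6.51 and 6.60 in the aged unimpaired, and 6.51, 6.61 and 6.84 in the aged impaired. All groups overlapped, and 9 of 23 arrays shared a value of 6.51 within 0.001. The difference between aged impaired and young was 0.17 ± 0.07 (SE; limma adjusted p = 0.152), and without young 1 it was 0.21 (limma adjusted p = 0.044).

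Clock, which encodes the histone-acetylating activator, was read by 2 tested probe sets. The brighter (1390199_at) lay at 8.14 ± 0.12 (SD, n = 9) in the young, 8.04 ± 0.18 (SD, n = 6) in the aged unimpaired and 8.16 ± 0.17 (SD, n = 8) in the aged impaired, and its aged impaired minus young difference of 0.02 had a 95% interval of −0.14 to 0.17. The other (1389456_at) had a lowest, median and highest log2 level of 6.39, 6.58 and 6.77 in the young, 6.29, 6.48 and 6.81 in the aged unimpaired, and 5.97, 6.37 and 6.55 in the aged impaired. On that probe set 5 of 8 aged impaired animals were below every young animal, and the difference of −0.19 ± 0.08 (SE) did not pass (limma adjusted p = 0.121). The probe sets had r = 0.19 within groups, and their differences between aged impaired and young were unequal by 0.21 (exact permutation p = 0.059, adjusted over 9 tests 0.147).

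Nr1d2, the receptor that shares with NR1D1 the repression of the BMAL1 gene, was the member whose 2 tested probe sets followed each other. They had r = 0.87 over 23 animals with group means subtracted, which ranked 1 among the 14646 other tested probe sets for 1390430_at. On 1390430_at the lowest, median and highest log2 levels were 8.55, 8.65 and 9.03 in the young, 8.73, 8.87 and 9.01 in the aged unimpaired, and 8.50, 8.94 and 9.31 in the aged impaired. On 1370541_at they were 8.22, 8.64 and 8.95, then 8.62, 8.69 and 8.96, then 8.52, 8.85 and 9.12. The medians lay in the order young, aged unimpaired, aged impaired on both, with overlap of all groups. The aged impaired minus young differences of 0.22 ± 0.09 and 0.24 ± 0.09 (SE) did not pass (limma adjusted p = 0.114 and 0.0831). The second passed after quantile normalization (limma adjusted p = 0.0411) and without young 1 (0.0328), and both passed without aged impaired 6 (0.0299 and 0.0450), which was the lowest aged impaired animal on both.

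**Figure D3:**
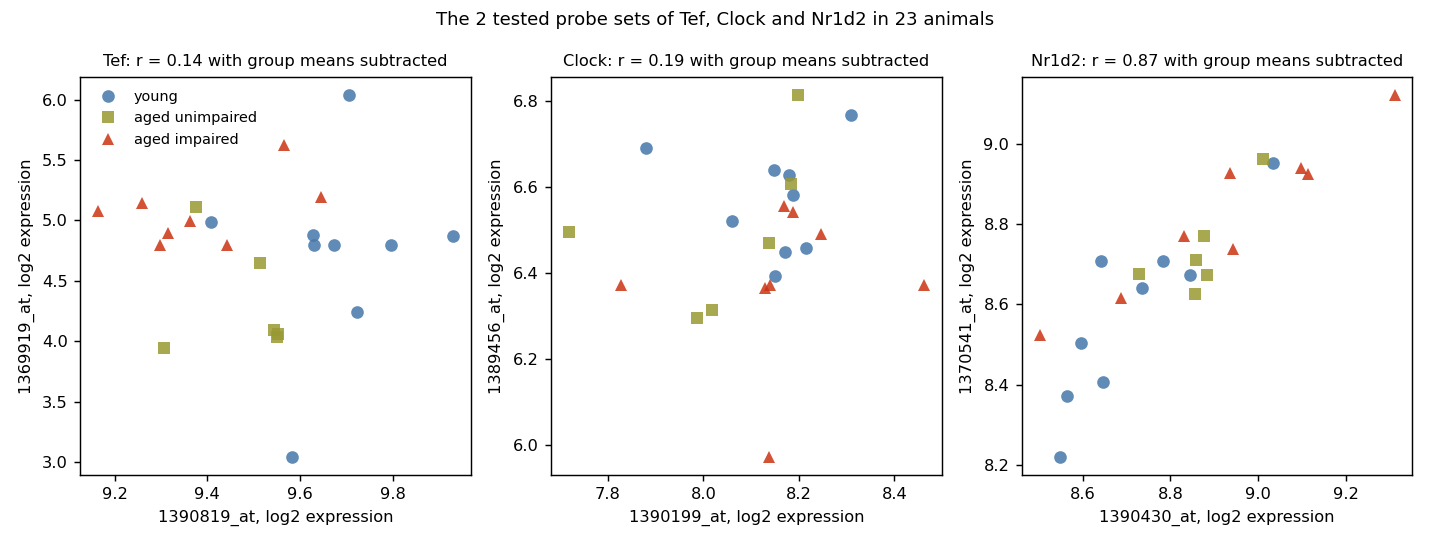
Log2 expression on the 2 tested probe sets of Tef, Clock and Nr1d2 in each of 23 animals, 1 probe set per axis, with colours and shapes for the groups. The animals line up for Nr1d2 (r = 0.87 with group means subtracted) and do not for Tef (r = 0.14) or Clock (r = 0.19).

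How the members varied together from animal to animal was asked after subtracting each group's mean, with each gene taken by its brightest tested probe set and animals permuted within groups. Of 36 pairs, 3 had a permutation p that passed at 0.05 after adjustment over the 36, 8 had an unadjusted p under 0.05, 24 had r above 0, and the median r was 0.17. All 23 arrays share 1 normalization, and the 3 pairs that passed joined Bhlhe41, Dbp and Nr1d2.

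Dbp and Nr1d2 had r = 0.77 (permutation p = 6e-05, adjusted 0.00216) and rho = 0.69 (permutation p = 0.0012, adjusted 0.0342). Without the 2 animals farthest from the median of Dbp, r was 0.72, and within groups it was 0.77 in the young, 0.48 in the aged unimpaired and 0.90 in the aged impaired. The sign was positive in each of the 3 groups. Among all 14646 other probe sets, the Nr1d2 probe set ranked 4 by r with Dbp.

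Bhlhe41 and Nr1d2 had r = 0.68 (permutation p = 0.0008, adjusted 0.0144) and rho = 0.67 (adjusted 0.0342), with 0.74 in the young, 0.22 in the aged unimpaired and 0.77 in the aged impaired, and 0.68 without the 2 farthest animals. Bhlhe41 and Dbp had r = 0.68 (permutation p = 0.0012, adjusted 0.0144) and rho = 0.62 (permutation p = 0.0049, adjusted 0.0588), with 0.65 without the 2 farthest animals. Here the aged unimpaired animals ran the other way, with r of −0.34 over 6 animals against 0.84 in the young and 0.71 in the aged impaired, and a difference between groups in r was not tested. By r with Bhlhe41, Nr1d2 ranked 108 and Dbp 105 among the 14646 other tested probe sets. Young 1 was the highest young animal for all 3 genes. Leaving it out gave r of 0.72 for Dbp and Nr1d2, 0.60 for Bhlhe41 and Nr1d2, and 0.54 for Bhlhe41 and Dbp. These were the lowest values with any single animal left out. Their permutation p were 0.0011, 0.01 and 0.021, not adjusted over the 36 pairs. With all animals, Dbp and Clock at an unadjusted permutation p of 0.015 had an adjusted p of 0.102. Whether the 3 pairs pass the adjustment without young 1 was not tested.

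**Figure D4:**
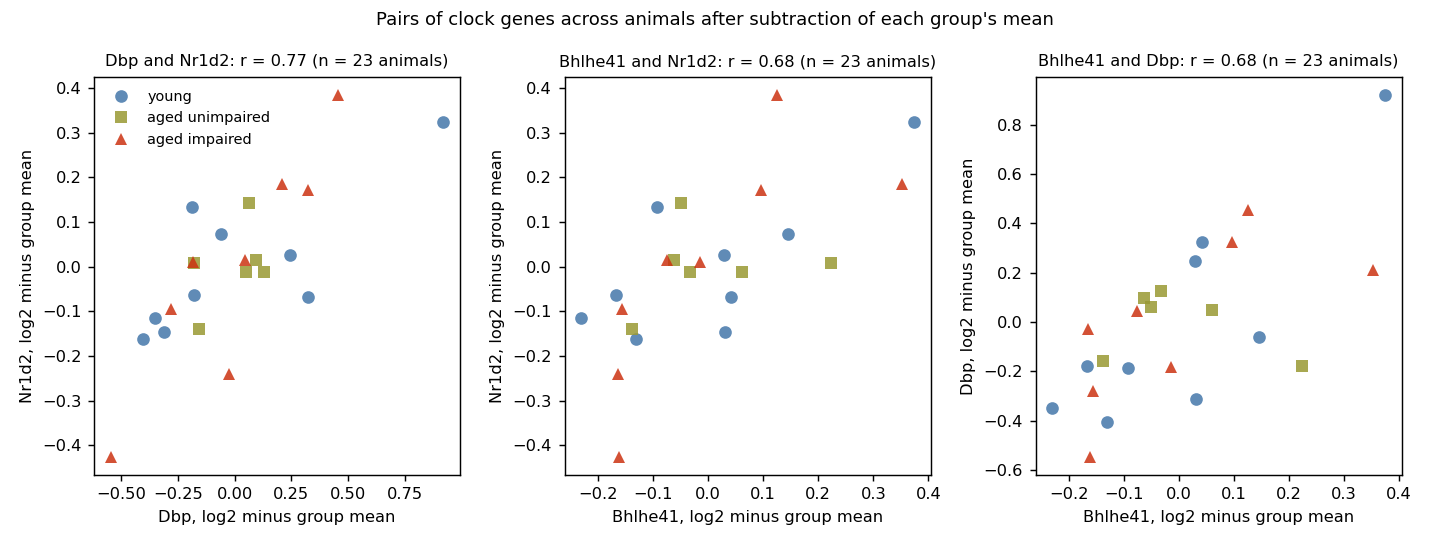
Log2 expression minus the group mean for Dbp and Nr1d2, Bhlhe41 and Nr1d2, and Bhlhe41 and Dbp, 1 point per animal (n = 23) with colours and shapes for the groups. Points rise from lower left to upper right in each panel, with r of 0.77, 0.68 and 0.68, and the point at the upper right among the young is young 1.

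The pairs that did not pass held some of the opposite sign. Dbp and Clock had r = −0.48 (permutation p = 0.015, adjusted 0.102), with −0.89 in the young, and passed when arrays were centred on their median. Bhlhe40 and Per1 had r = −0.50 (permutation p = 0.023, adjusted 0.118). Per3 ran with Dbp (r = 0.58, permutation p = 0.017) and with Nr1d2 (r = 0.50, permutation p = 0.016), neither past the adjustment. With the mean of all tested probe sets of each gene, Per3 and Nr1d2 passed (r = 0.58, permutation p adjusted 0.049). Per2 and Clock passed there too (r = 0.68, adjusted 0.0108), against r = 0.30 by the brightest probe sets (permutation p = 0.21). Most animals held an extreme of their group on some probe set. Young 9, for example, was the lowest young animal for Dbp, Per3 and both Nr1d2 probe sets and the highest for Per2 and both Clock probe sets. Aged impaired 6 was the lowest of its group on 6 of 12 probe sets and aged impaired 3 the highest on 4. Dbp and both Nr1d2 probe sets were among them in each case. On Per3 aged impaired 6 shared the lowest value with aged impaired 2 and 4. On the dim Tef probe set it lay within 0.001 of aged impaired 5.

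**Figure D5:**
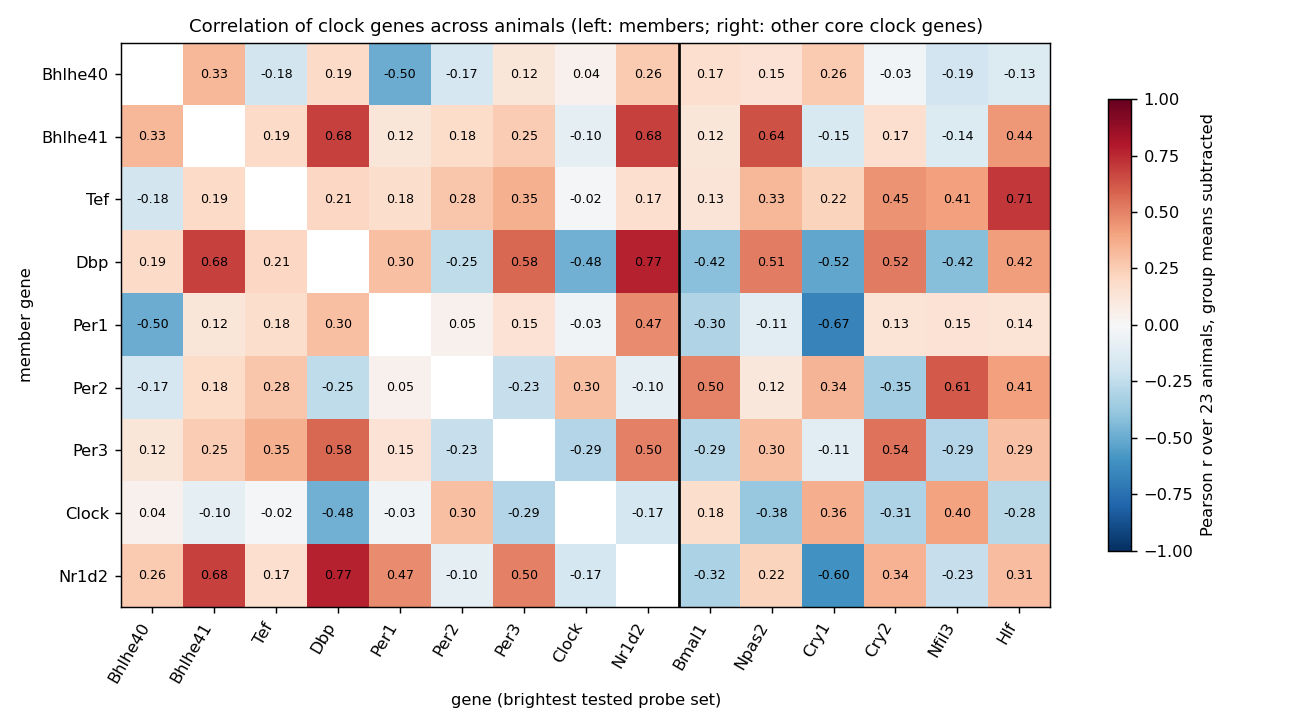
Pearson r over 23 animals with group means subtracted, for each of the 9 tested member genes (rows) with the other members (left) and with other core clock genes (right), each by its brightest tested probe set; red is positive and blue negative. Dbp, Nr1d2 and Bhlhe41 form the 3 member pairs that passed, and Tef stands out with Hlf (r = 0.71).

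The same measure set the members beside 6 other core clock genes, 54 pairs in all. Tef followed Hlf, another D-box activator of its family, with r = 0.71 (permutation p = 0.00056, adjusted over 54 pairs 0.0232). By rho the value was 0.74 (adjusted 0.00675). Tef and Dbp, also of that family, had r = 0.21 (permutation p = 0.38, adjusted over the 36 member pairs 0.653). Dbp ran against the repressor gene Cry1 with r = −0.52 (permutation p = 0.00086, adjusted 0.0232), but Cry1 lay between 4.10 and 4.23 on all arrays, near the floor, with a median of 4.14 in every group. Per2 followed the D-box repressor gene Nfil3 with r = 0.61 (permutation p = 0.0022, adjusted 0.0396), and by rho, at 0.48, the pair did not pass (adjusted 0.162). Nfil3 also lay near the floor, between 3.78 and 4.80 on all arrays. Bhlhe41 followed Npas2, the neuronal relative of Clock, with r = 0.64 (permutation p = 0.0035, adjusted 0.0473). That pair rested on the young, where r was 0.97, against −0.30 in the aged unimpaired and 0.53 in the aged impaired. By rho, at 0.42, it did not pass (adjusted 0.27). Ranked by r among the 14646 other tested probe sets, Hlf stood at 88 for Tef, Nfil3 at 46 for Per2 and Npas2 at 237 for Bhlhe41.

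Over all named genes, most of the nearest neighbours of the members were not clock genes. By r over 23 animals, the 3 nearest were Neurl1 (0.88), Dcaf11 (0.88) and Nf2 (0.85) for Tef, Hnrnpdl (0.77), Ccsap (0.77) and Nr1d2 (0.77) for Dbp, and Rchy1 (0.80), Lrrfip1 (0.80) and Ddx3x (0.79) for Nr1d2. For Per1 they were Med15 (0.80), Mat2a (0.76) and Kirrel3 (0.74), for Per3 Htatsf1 (0.81), Map6 (0.76) and Hk1 (0.74), and for Bhlhe40 Arl1 (0.73), Smim10l1 (0.73) and Nudt9 (0.72). Clock had Utp6 (0.72), Ankrd50 (0.70) and Tardbp (0.68). Per2 had the second Clock probe set (0.74), Fam78b (0.70) and Fgfbp3 (0.70), so a clock gene stood among the nearest 3 for Per2 and Dbp only. These values describe the 23 arrays and carry no test.

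Of the other core clock genes, 6 of 11 listed were tested, and Bmal1 was the 1 that was called by its brightest probe set. That call was for aged impaired against young, where 10.2% of all genes were called, 6.42% lower. Bmal1 (1370510_a_at), the partner of CLOCK, had a lowest, median and highest log2 level of 6.79, 6.90 and 7.06 in the young, 6.49, 6.77 and 7.19 in the aged unimpaired, and 6.38, 6.69 and 6.85 in the aged impaired. Below every young animal were 6 of 8 aged impaired animals. The mean fell by 0.25 ± 0.08 (SE) on the log2 scale, 1.19-fold lower, with a limma adjusted p of 0.0493, close to the threshold, and the call was lost in 4 of 10 alternative settings and in 17 fits without 1 animal (aged impaired 2, 3, 4, 5, 7 or 8, aged unimpaired 1, 4 or 8, or any of young 2 to 9), with limma adjusted p between 0.0218 and 0.123 over all alternatives. The difference of the aged unimpaired from young, −0.12 ± 0.09 (SE), did not pass (limma adjusted p = 0.496).

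The other 5 did not pass for aged impaired against young. Npas2 differed by 0.16 ± 0.15 (SE), Cry1 by 0.00 ± 0.02, Cry2 by 0.07 ± 0.06, Nfil3 by −0.21 ± 0.09 (limma adjusted p = 0.135) and Hlf by 0.07 ± 0.12 on its brightest probe set. On the dimmest tested Hlf probe set (1386641_at) the difference was 0.46 ± 0.14 (SE), with a limma adjusted p of 0.0333. That call was lost in 4 of 10 alternative settings and held in 17 of 24 fits without 1 or 2 animals. On the remaining tested Hlf probe set (1385585_at) the difference was 0.10 ± 0.10 (SE; limma adjusted p = 0.587). Bmal2, Rora and Rorb lay near the floor and were not tested.

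Among genes that modify or assist clock proteins, 15 of 20 listed were tested, and by their brightest probe sets 4 fell and 0 rose in aged impaired against young, beside 10.2% of 8726 genes called, 6.42% lower. Btrc, which encodes an F-box protein that sends PER proteins to degradation, fell by 0.38 ± 0.06 (SE) on the log2 scale with all 8 aged impaired animals below every young animal, as for 0.259% of all probe sets (limma adjusted p = 0.000479), and its relative Fbxw11 fell by 0.14 ± 0.04 (SE; limma adjusted p = 0.0334). Csnk1d, the casein kinase that phosphorylates PER proteins, fell by 0.14 ± 0.04 (SE; limma adjusted p = 0.0295), and Sfpq, a PER-associated splicing and repressor protein, by 0.30 ± 0.08 (SE; limma adjusted p = 0.0194). In aged unimpaired against young, 1 of 15 rose, the acetyltransferase gene Ep300 by 0.18 ± 0.05 (SE; limma adjusted p = 0.0446), beside 2.03% of genes called. The call of Btrc held under every alternative, whereas those of Fbxw11, Csnk1d and Ep300 were lost in 4, 2 and 4 of 10 alternative settings and in 7, 4 and 15 of 24 fits without 1 or 2 animals. That of Sfpq was lost without aged impaired 1 and 2 together (limma adjusted p = 0.0509). The median log2 difference of this list was −0.04 for aged impaired against young, near the −0.02 over all genes.

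Of 11 tested clock output genes 1 rose in aged impaired against young, Rbm3, which encodes a cold-inducible RNA-binding protein, by 0.48 ± 0.11 (SE) or 1.40-fold (limma adjusted p = 0.0115). That count, and those of the glucocorticoid-responsive and immediate early lists in the same comparison, are near the 10.2% of all genes called. Of 11 tested glucocorticoid-responsive genes 1 rose, the metallothionein gene Mt2A, by 0.58 ± 0.15 (SE; limma adjusted p = 0.022), and the other 10 did not pass, with log2 differences from −0.14 (Errfi1) to 0.40 (Sgk1; limma adjusted p = 0.152). Of 12 tested immediate early genes 1 fell in the aged impaired, the nuclear receptor gene Nr4a3 by 0.49 ± 0.08 (SE; limma adjusted p = 0.000914). In the aged unimpaired against young 1 fell, Jun by 0.46 ± 0.09 (SE; limma adjusted p = 0.00873), beside 2.03% of genes called. Mt2A was no longer called without a filter, with the replicate block or without aged impaired 1 and 2, and Jun with the block, while Rbm3 and Nr4a3 kept these calls in every alternative. Fos differed by −0.29 ± 0.40 (SE; limma adjusted p = 0.688) in the aged impaired. Between the aged groups 0 genes of any of these 5 lists were called by limma, beside 0.435% of genes called. Of 7 tested CA3 neuron markers 4 fell in the aged impaired (6.42% of all genes did), as Tef and Btrc did, and 0 in the aged unimpaired, with mean log2 levels of 10.5 to 10.7 in the young, 10.3 to 10.6 in the aged unimpaired and 10.1 to 10.6 in the aged impaired. None of the 5 tested CA1 neuron markers was called. Their mean log2 level ranged from 5.84 to 7.99 in the young, 7.27 to 7.67 in the aged unimpaired and 6.81 to 8.65 in the aged impaired. Their median log2 difference from young was 0.44 in the aged impaired and 0.21 in the aged unimpaired, against −0.02 and −0.002 over all genes. The 8 interneuron markers, also uncalled, had mean log2 levels of 7.82 to 8.32 in the young and 7.95 to 8.29 in the aged impaired. The part of these cell types in those results was not tested.

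The arrays differed slightly by group. Their median over all probe sets lay between 3.39 and 3.42 in the young, 3.41 and 3.43 in the aged unimpaired and 3.43 and 3.46 in the aged impaired, so that every aged impaired array was above every young one, while their median over tested probe sets lay between 7.59 and 7.66 in the young and 7.54 and 7.72 in the aged impaired. With arrays centred on the latter median, 4 of 12 member probe sets were called for aged impaired against young, as without centring. A gap between 2 control rows lay between 2.08 and 2.46 in the young, 2.12 and 2.39 in the aged unimpaired and 2.02 and 2.27 in the aged impaired. By name both rows are Gapdh controls, but names of some control rows look out of register with their values. What the gap measures is therefore uncertain. With that gap as a covariate 3 members were called, Dbp being lost, and over all probe sets 937 in place of 1429 were called for aged impaired against young and 0 in place of 114 between the aged groups. Each array's mean r with the rest over tested probe sets lay between 0.984 and 0.990, lowest for aged impaired 2, and 0 pairs of arrays were identical. The tested markers of oligodendrocyte precursors (3), endothelium (6), dentate granule cells (2) and choroid plexus (1) had 0 genes called for aged impaired against young. So few genes cannot show whether these cell types changed. Of 9 oligodendrocyte markers 1, Ugt8, fell.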

How the data were processed

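CA3 RNA of 23 rats was measured, 1 array per animal, with groups taken from the labels, which number the animals as biological replicates. The deposited values are log2 expression from GCRMA, per the submitters' processing notes; its version and settings are not stated in the labels or notes used here. GCRMA corrects background by probe sequence, scales arrays to a common distribution and pulls dim probe sets onto a floor, which compresses differences there. Arrays have no read depth, and their number limits the precision.

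The table held 31099 probe sets, of which 57 control rows were left out. Genes were named from the platform's annotation, updated through a GRCr8 gene table (20826 probe sets with 1 symbol, 436 with several, 9780 with none; 20758 matched). Probe sets reaching 4 on the log2 scale in 6 or more arrays were tested with limma 3.58.1 (lmFit and eBayes, R 4.3.3), 1 mean per group over all arrays, 20 residual and 2.35 prior degrees of freedom, two-sided, Benjamini-Hochberg over 14647, called at an adjusted p of at most 0.05. Differences are given as the first-named group minus the other. Pairs of genes were tested with 100000 permutations of animals within groups (numpy 2.4.6, scipy 1.17.1), as were pairs with other core clock genes, which were added after results were seen, like the exact tests between probe sets. The fit was checked on simulated data.

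The members and lists were chosen with earlier results of these data known. Every member was named, with every called gene of 5 lists, all measured core clock genes and the 3 nearest genes of each member by r. For lists a gene was taken by its brightest tested probe set. Alternatives covered the filter, scaling, floor, array weights, variance trend, arrays in the fit, replicate block, a gap between control rows as covariate, and leaving out each animal. The promoter windows are RefSeq's, from the GRCr8 table; genome coordinates of probe sets were not used here.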

Additional observations from a re-analysis of the deposited data

Results flagged for a closer look

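Of 36 groups of animals checked, 12 tested probe sets in 3 groups each, 2 held an animal far from the rest of its group by Dixon's test, and chance alone flags about 1 in 20 groups. For Per2 (1368303_at) young 9 was the highest young animal at a log2 level of 8.40, a gap of 0.566 of the range of the group. For Clock (1389456_at) aged impaired 3 was the lowest aged impaired animal at 5.97, a gap of 0.675 of the range. Leaving out either animal changed no call of these probe sets.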

How the results depend on the processing

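Of 267 alternative values of the 8 called member results, 253 stayed called, 14 were no longer called and 0 reversed. The calls of Bhlhe41 and of the bright Tef probe set held under every alternative that tested them. Bhlhe40 was not tested under a filter at a log2 value of 6. The call of Dbp for aged impaired against young was also lost with no filter (limma adjusted p = 0.0831), with only the groups compared in the fit (0.0658) and with the gap between control rows as covariate (0.0855). With no filter the call of Bhlhe40 for both aged groups against young was lost (limma adjusted p = 0.0591). Of 1345 values of uncalled member results, 7 became called, for Nr1d2, Per3 and Dbp. Leaving out animals gave 3 to 6 called member probe sets for aged impaired against young and 1 for aged unimpaired against young. It gave 0 between the aged groups and 3 to 5 for both aged groups against young, where young 1 left out gave 5. With the mean of all tested probe sets of a gene, 5 member pairs passed in place of 3, the added ones being Per3 with Nr1d2 and Per2 with Clock. With the replicate number as a block, 3 member probe sets were called for aged impaired against young and 1 for aged unimpaired against young. It gave 0 between the aged groups and 2 for both aged groups against young. Same-numbered animals had a median r of −0.01 over 20 pairs (−0.14 to 0.13). Whether they share a batch was not tested. Under the replicate block Bhlhe40 had a log2 difference of 1.17 for aged impaired against young (limma adjusted p = 0.0533) and 0.98 for both aged groups (0.081). The block gave 870 called probe sets in all in place of 1429 for aged impaired against young, 86 in place of 302 for aged unimpaired against young, 0 in place of 114 between the aged groups and 527 in place of 1010 for both aged groups. Without a filter these totals were 768, 126, 2 and 509, the control-row covariate gave 937 for aged impaired against young and 0 between the aged groups, and array weights gave 672 for aged unimpaired against young and 222 between the aged groups. The total between the aged groups lay between 2 and 447 with animals left out, 447 without aged unimpaired 7. With arrays centred on the median, 768 probe sets were called higher and 768 lower for aged impaired against young, in place of 568 and 861. Dim probe sets are compressed at the floor, which limits Nr1d1, Cry1, Nfil3 and Bhlhe40. Hour of death and scan batch were not used here, so their part in these levels was not tested.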
